A study of Mus musculus with 6 samples.

Results

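Slc5a3 and Mrps6 form an overlapping pair of genes on mouse chromosome 16, and the values described here are those of this pair and of 4 genes near it, Kcne1, Kcne2, Itsn1 and Cryzl1. Slc5a3 was selected on its measured intensity difference between the genotypes on these same arrays, and the other genes for their place beside it. The 6 are among 18193 genes with a probe set of their own. Every probe set that the platform annotation paired with 1 of these 6 symbols and no other was taken, which gave 21 of the 45101 probe sets on the array. Slc5a3 had 3 probe sets, Mrps6 2, Kcne1 2, Kcne2 1, Itsn1 9 and Cryzl1 4. The KI against WT comparison was used in choosing the genes, so their differences are a description and no test is read from them.

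The arrays measured RNA of macrophages grown from the bone marrow of C57BL/6 mice, 3 arrays from knockin (KI) mice and 3 from wild-type (WT) mice. All 6 cultures had received RANKL (100 ng/ml), the cytokine that drives osteoclast formation, together with the macrophage growth factor M-CSF (44 ng/ml) for 24 hours. The series title names the IVVY motif of RANK, the receptor of RANKL, and the labels give neither the altered residues nor whether the 3 cultures of a genotype came from separate mice, so the spread between arrays may be technical. The mouse age is not given in the sources used here, and the cultures are primary cells, not a line.

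Slc5a3 encodes a sodium-coupled transporter (SMIT1) that brings myo-inositol into the cell. Myo-inositol is a precursor of the phosphoinositide lipids and also an osmolyte, and in kidney and other cells the gene is known to be induced by hypertonic medium through the factor NFAT5. Mrps6 encodes a protein of the small subunit of the mitochondrial ribosome, which translates the messages of mitochondrial DNA. Kcne1 and Kcne2 are small membrane proteins that associate with voltage-gated potassium channels and are best known from the heart, inner ear and stomach. Itsn1 (intersectin 1) is a scaffold of clathrin-mediated endocytosis with SH3 domains and, in its long form, an exchange factor for Cdc42. Cryzl1 is a quinone oxidoreductase-like protein related to zeta-crystallin.

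RefSeq windows (GRCm38.p6, 250 bases before to 50 after a gene's start) were found for 5 of the 6 genes; Kcne1 had none. The annotated starts of Slc5a3 and Mrps6 lie 14 bases apart on the plus strand. The span of Slc5a3 lies within that of Mrps6 except for those 14 bases. Their windows therefore share 286 of 300 bases, and the Slc5a3 window, chr16:92058072-92058371 on the plus strand, is shown because both genes start in it, with each GGGCGG (a GC box, searched on both strands) in capitals:
Slc5a3: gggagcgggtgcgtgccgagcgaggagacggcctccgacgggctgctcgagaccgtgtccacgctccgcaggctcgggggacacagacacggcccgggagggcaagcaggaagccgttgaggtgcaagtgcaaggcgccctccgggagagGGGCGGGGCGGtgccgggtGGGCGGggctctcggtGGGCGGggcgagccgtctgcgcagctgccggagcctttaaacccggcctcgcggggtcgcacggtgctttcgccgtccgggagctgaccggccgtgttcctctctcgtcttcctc
The Mrps6 window, chr16:92058086-92058385, repeats this sequence from its base 15 on and adds these 14 bases: tgcgccccgcgtcc. Itsn1 and Cryzl1 are also neighbours by their starts, which lie 569 bases apart and point away from each other. KI and WT arrays lay apart on 6 of the 8 tested probe sets of Itsn1 and on 0 of the 4 of Cryzl1. They lay apart on 60.9% of all tested probe sets. The windows of the 2 genes, chr16:91729121-91729420 on the plus strand for Itsn1 and chr16:91728753-91729052 on the minus strand for Cryzl1, are shown with the same marking because the genes start side by side:
Itsn1: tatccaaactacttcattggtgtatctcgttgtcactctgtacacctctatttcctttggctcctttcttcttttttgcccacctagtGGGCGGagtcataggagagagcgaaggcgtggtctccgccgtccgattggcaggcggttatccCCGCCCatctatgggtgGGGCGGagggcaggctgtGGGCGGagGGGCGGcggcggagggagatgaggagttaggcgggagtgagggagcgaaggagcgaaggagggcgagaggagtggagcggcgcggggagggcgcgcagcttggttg
Cryzl1: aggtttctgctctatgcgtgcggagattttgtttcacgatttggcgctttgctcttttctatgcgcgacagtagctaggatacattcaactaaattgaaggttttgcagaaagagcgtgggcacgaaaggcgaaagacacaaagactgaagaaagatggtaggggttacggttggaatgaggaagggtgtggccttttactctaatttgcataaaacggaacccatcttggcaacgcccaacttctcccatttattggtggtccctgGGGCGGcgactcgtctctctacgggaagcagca
GGGCGG occurred 4 times in the Slc5a3 window, 2 of the matches overlapping by 1 base, 5 times in that of Itsn1 and 1 time in that of Cryzl1. Of all 32851 windows in the table, 35.7% held it. TATAAA (13.6% of all windows), TGGAAA (21.4%), which begins the tonicity-responsive element and also fits the NFAT core, TGANTCA (7.81%, AP-1) and CCGGAAG (8.86%, ETS factors) were searched on both strands and occurred 0 times in the windows of Slc5a3, Mrps6, Itsn1 and Cryzl1. Of the 2 windows of Kcne2, 1 held 1 GGGCGG and each held 1 TGGAAA. These counts describe letters in 300 bases and do not show binding.

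The deposited values are intensities on a linear scale. They were floored at 16 and log2 transformed, and the 22518 probe sets whose mean exceeded that of the median probe set, controls aside (an intensity of 84.7), were tested. Of the 21 probe sets of the locus 16 passed this filter. Macrophage markers were present and higher in KI: the summed intensity of 7 ranged from 132579 to 137353 in KI and from 90262 to 109884 in WT, with 7 of 7 past the threshold described below (4 with spike-in scaling and 2 with older spike-in scaling, as explained below). Of 6 osteoclast markers 5 were lower in KI (sum 28798 to 31904 in KI, 62599 to 70922 in WT), and Calcr lay near the floor. Of 7 neutrophil and myeloid progenitor markers 5 were higher in KI (sum 21993 to 43495 in KI, 15715 to 19724 in WT), whereas under older spike-in scaling the single one past the threshold was lower. Of all tested genes 20.9% were higher and 27% lower in KI as deposited. Markers of B cells (sum 285 to 342 in KI, 244 to 391 in WT), of T and NK cells (248 to 252 in KI, 224 to 253 in WT), of erythroid cells (231 to 256 in KI, 210 to 222 in WT) and of mast cells and basophils (151 to 174 in KI, 145 to 180 in WT) were dim, with Cd3g, Ncr1, Cpa3 and Ms4a2 near the floor. The stromal and osteoblast sum spread widely in both groups (842 to 3012 in KI, 1017 to 2975 in WT), and 1 of the 3 tested markers of that list was lower in KI as deposited and under both scalings. The part of these cell types in the results was not tested, and in these bulk samples fewer cells of a type and less RNA per cell cannot be told apart. Tnfrsf11a, which encodes RANK, had means of 484 ± 77.2 in KI and 1056 ± 82.6 in WT on one probe set and of 961 ± 119 in KI and 847 ± 258 in WT on the other (SD, n = 3 each). Neither probe set checks the labels, since a changed motif need not alter the level of the message.

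The myo-inositol transporter gene Slc5a3 was much lower in KI cells on all 3 of its probe sets. Its brightest probe set, 1435484_at, read 2136, 1879 and 2085 on the KI arrays, against 7931, 11345 and 11729 on the WT arrays. The groups did not overlap, and WT 1 was the lowest of the WT arrays. The KI level was 19.9% of the WT level, a log2 difference of -2.33 (SE 0.15, n = 3 each), and it was -2.51 without WT 1.

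The second probe set, 1440227_at, read 167, 142 and 134 in KI and 1285, 1008 and 1333 in WT. Every KI array lay far below every WT array, at 12.3% of the WT level (log2 difference -3.03, SE 0.14). The third, 1422170_at, was dim and below the filter, with 25.1, 21.8 and 20.5 in KI against 46.1, 50.2 and 43.5 in WT, so that its difference of -1.05 (SE 0.10, from the fit without a filter) lies close to the floor. WT 1 was thus the lowest WT array on 1435484_at, whereas on 1440227_at the lowest was WT 2 and on 1422170_at WT 3.

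Mrps6, the mitochondrial ribosomal protein gene that starts beside Slc5a3, was lower in KI by a similar amount. Probe set 1447585_s_at read 2282, 2478 and 2522 in KI and 9696, 10002 and 10368 in WT. The KI level was 24.2% of the WT level (log2 difference -2.05, SE 0.06). Probe set 1424440_at read 1401, 1399 and 1397 in KI and 5179, 5741 and 5722 in WT, which is 25.2% of the WT level (log2 difference -1.99, SE 0.07). On both probe sets the groups lay far apart, and the arrays within a group were closer together than on the bright Slc5a3 probe set.

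Ordered from the lowest difference upwards among the 22518 tested probe sets, Slc5a3 ranked 6 (1440227_at) and 32 (1435484_at) and Mrps6 52 (1447585_s_at) and 61 (1424440_at), and 58 probe sets in all were at least 4-fold lower in KI. As these genes were picked with that ranking known, the ranks describe them only. Where on the transcripts the probe sets lie was not analysed here, and since the genes overlap, RNA of either could reach a probe set named for the other.

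The log2 value of Slc5a3 minus that of Mrps6 on the same array shows how far the pair moved together. For 1435484_at minus 1447585_s_at it was -0.10, -0.40 and -0.27 on KI 1, KI 2 and KI 3 and -0.29, 0.18 and 0.18 on WT 1, WT 2 and WT 3. These values overlapped between the genotypes, with means of -0.26 ± 0.15 in KI and 0.02 ± 0.27 in WT (SD, n = 3 each). Against the other Mrps6 probe set, 1424440_at, the means were 0.54 ± 0.10 in KI and 0.88 ± 0.23 in WT, without overlap but with KI 1 (0.609) beside WT 1 (0.615). With the more strongly lowered Slc5a3 probe set, 1440227_at, the pair was less matched: the difference was -4.04 ± 0.24 in KI and -3.06 ± 0.22 in WT against 1447585_s_at, and -3.25 ± 0.16 in KI and -2.21 ± 0.27 in WT against 1424440_at. The 2 tested probe sets of Slc5a3 thus differed from each other (-3.03 and -2.33) by more than the brighter differed from Mrps6 (-2.33 against -2.05 and -1.99).

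**Figure D1:**
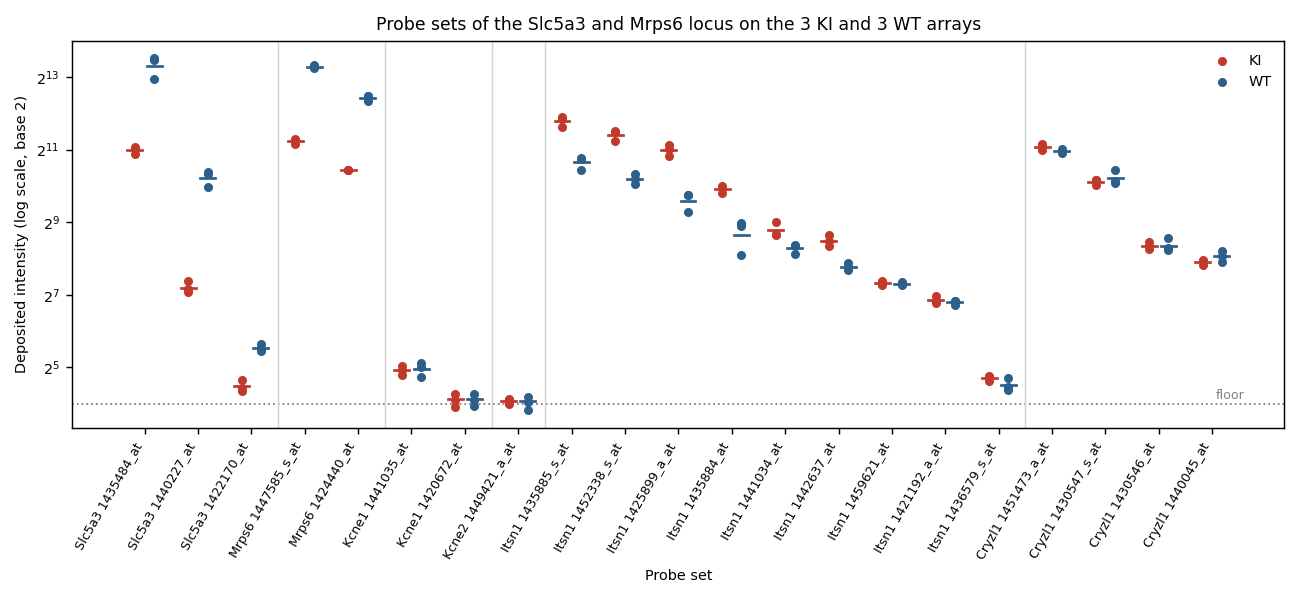
Deposited intensity (log axis) of the 21 probe sets of the 6 genes on the 3 KI arrays (red, left) and 3 WT arrays (blue, right); points are arrays, short lines are group means of the log2 values, and the dotted line is the floor of 16. Slc5a3 and Mrps6 are lower in KI, 6 Itsn1 probe sets are higher (1441034_at turned to -0.03 under older spike-in scaling), and those of Kcne1 and Kcne2 lie near the floor in both.

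The potassium channel subunit genes on the other side of the pair gave almost no signal in either genotype. Kcne2, the next protein-coding gene after Mrps6 in the RefSeq order, read 15.8, 17.4 and 17.2 in KI and 14.2, 16.5 and 18.1 in WT, which is at the floor of 16. Kcne1 read 14.998, 17.2 and 19.2 in KI and 19.2, 15.3 and 17.1 in WT on 1420672_at. Its other probe set, 1441035_at, read 27.7, 30.5 and 32.7 in KI and 26.8, 34.9 and 32.2 in WT. All 3 of these probe sets were below the filter and their groups overlapped, so no direction can be given for either gene.

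Itsn1, the endocytic scaffold gene, was higher in KI, in the opposite direction to Slc5a3 and Mrps6. Its brightest probe set, 1435885_s_at, read 3854, 3155 and 3676 in KI and 1389, 1710 and 1736 in WT (log2 difference 1.15, SE 0.12). Probe set 1452338_s_at read 2870, 2429 and 2901 in KI and 1062, 1167 and 1285 in WT (1.22, SE 0.11). Every KI array exceeded every WT array on both.

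Probe set 1425899_a_at read 2257, 1820 and 2073 in KI and 623, 854 and 857 in WT (1.41, SE 0.15). Probe set 1435884_at read 987, 897 and 1028 in KI and 274, 475 and 505 in WT (1.26, SE 0.23), where WT 1 was the lowest array and the difference was 0.98 without it. These 4 bright probe sets thus differed by 1.15 to 1.41 on the log2 scale, and on 1425899_a_at the KI level was 265% of that in WT.

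The other 5 Itsn1 probe sets differed less. Probe set 1442637_at read 357, 323 and 399 in KI and 205, 234 and 218 in WT (0.71, SE 0.11), and 1441034_at read 516, 407 and 405 in KI and 327, 332 and 277 in WT (0.50, SE 0.13), both without overlap. The groups overlapped on 1459621_at, with 156, 162 and 168 in KI and 163, 157 and 155 in WT, and on 1421192_a_at, with 110, 125 and 115 in KI and 106, 115 and 113 in WT. The last, 1436579_s_at, was below the filter at 26.8, 27.3 and 24.8 in KI and 20.6, 26.0 and 21.8 in WT. Which Itsn1 transcripts each probe set reads was not analysed here, so the short and long forms cannot be told apart.

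Cryzl1, which starts beside Itsn1 on the opposite strand, had KI and WT arrays that overlapped on all 4 of its probe sets. The brightest, 1451473_a_at, read 2039, 2198 and 2297 in KI and 1999, 2069 and 1939 in WT (log2 difference 0.12, SE 0.07). Probe set 1430547_s_at read 1052, 1152 and 1141 in KI and 1379, 1084 and 1116 in WT (-0.09, SE 0.11), where WT 1 was the highest array. The dimmer 1430546_at differed by 0.00 (SE 0.11) and 1440045_at by -0.15 (SE 0.10). The bright Itsn1 probe sets, with differences of 1.15 to 1.41, thus stood beside Cryzl1 differences of -0.15 to 0.12.

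All tested probe sets were fitted together in limma (lmFit and eBayes, whose variance prior followed the intensity). A probe set passed if its p, after Benjamini-Hochberg adjustment over the whole table, was under 0.05. By that threshold 44.9% of all tested probe sets differed, 19.3% higher and 25.6% lower in KI, and the groups did not overlap on 60.9%. Of the 16 tested probe sets of the locus 10 passed it, 4 lower (2 of Slc5a3 and 2 of Mrps6) and 6 higher (all Itsn1), and on the same number, 10, the groups did not overlap. Nothing is read from these counts, since the contrast chose the genes.

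Scaling moved the zero line of these differences. With the arrays scaled to the hybridisation spike-in probe sets the median of all tested probe sets was -0.25, against -0.04 as deposited. It was -0.57 when an earlier design of those spike-in probe sets was used, here called older spike-in scaling. The 2 designs differed most on the WT arrays. Their log2 factors on WT 1, WT 2 and WT 3 were -0.19, -0.05 and -0.07 for the first and -0.36, 0.08 and -0.52 for the older. On KI 1, KI 2 and KI 3 they were 0.18, 0.02 and 0.11 and 0.34, 0.18 and 0.28. Slc5a3 stayed lower in KI under both scalings, at -2.53 and -2.86 on 1435484_at, as did Mrps6, at -2.25 and -2.58 on 1447585_s_at. The 4 bright Itsn1 probe sets stayed higher in KI, at 0.94 to 1.20 with the first scaling and at 0.62 to 0.88 with the older one, but 1441034_at then turned to -0.03. Of the dimmer Itsn1 probe sets, 1441034_at no longer passed the threshold with either scaling, and 1442637_at (0.18) did not pass with the older one. Cryzl1 lay at -0.09 to -0.36 and -0.41 to -0.68, and was then past the threshold as lower in KI on 1440045_at with both scalings and on 1430547_s_at with the older one. Of all tested probe sets 9011 and 10586 were lower under these 2 scalings. The brightest Cryzl1 probe set, 1451473_a_at, passed with neither. In another alternative it passed as higher in KI, with an adjusted p down to 0.013 (limma).

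**Figure D2:**
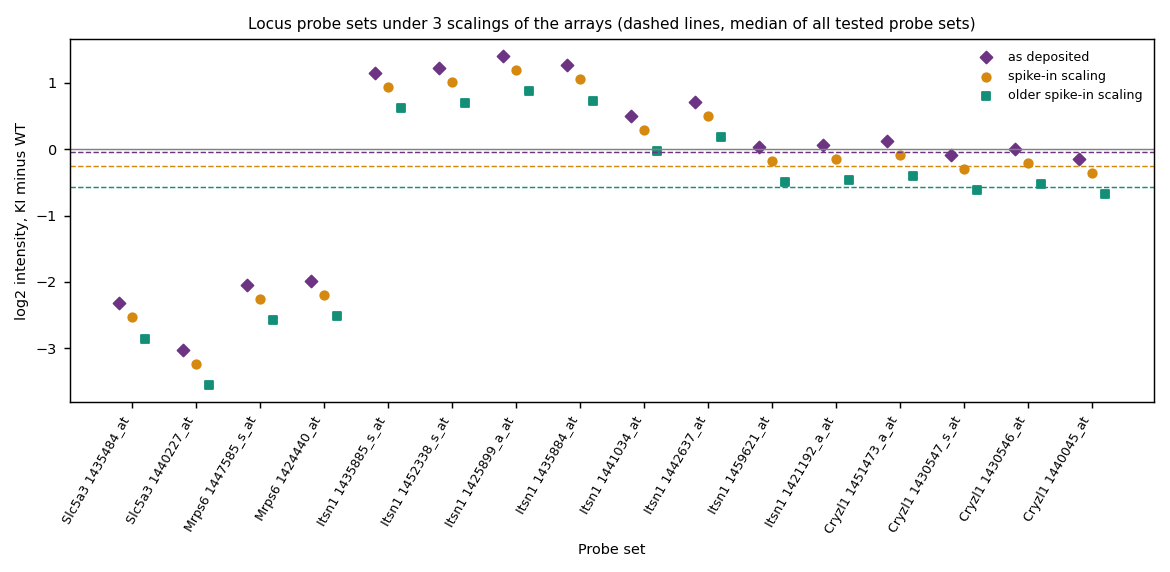
Log2 intensity difference, KI minus WT, of the 16 tested probe sets of the locus as deposited (diamonds), with spike-in scaling (circles) and with the older version of it (squares); dashed lines are the medians of all tested probe sets (-0.04, -0.25 and -0.57). Slc5a3 and Mrps6 lie far below and the 4 bright Itsn1 probe sets above the median in each.

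Whether the difference extends along the chromosome was asked of the 15 protein-coding genes on each side of Slc5a3 in the RefSeq order, leaving out the 6 genes above. Of these 25 genes 22 had a probe set of their own and 19 passed the filter, each taken by its brightest tested probe set. In KI 6 rose and 3 fell at an adjusted p under 0.05 (limma), and 10 did not pass. That is 9 of 19, beside 47.9% of all 10941 genes taken the same way (20.9% higher and 27% lower). The median difference of the 19 was 0.13, against -0.03 for all genes. Their differences ran from -0.81 to 0.89, and from -1.12 to 1.02 over all their tested probe sets. Both Slc5a3 and Mrps6 lay outside these ranges. Slc5a3 was selected on its difference, so its place outside them is a description and carries no test. Over all 44 tested probe sets of these neighbours, 11 rose, 6 fell and 27 did not pass, beside 19.3% of all tested probe sets that were higher and 25.6% that were lower.

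Of the genes before Slc5a3, Atp5o, the nearest on that side, encodes the peripheral stalk subunit OSCP of the mitochondrial ATP synthase. It read 9632, 10598 and 10967 in KI and 14166, 13733 and 14059 in WT, and fell by 0.43 (log2, SE 0.06, limma adjusted p = 0.0021). Its other probe set fell too (-0.72, SE 0.10). The next genes in that direction are Itsn1 and Cryzl1, described above.

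Beyond Cryzl1, Donson, a replication fork protein, fell by 0.70 (SE 0.17, adjusted p = 0.017 by limma), with 440, 616 and 562 in KI and 1070, 779 and 780 in WT. Gart, a trifunctional enzyme of purine synthesis, fell by 0.81 (SE 0.19, adjusted p = 0.013 by limma), with 835, 1131 and 987 in KI and 2229, 1543 and 1464 in WT. WT 1 was the highest array for both. Between them lies Son, a splicing cofactor, which differed by -0.03 (SE 0.05), and its 7 tested probe sets gave 0 calls by limma, with 1 at an unadjusted p under 0.05.

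Farther out stand 4 cytokine receptor genes. Il10rb, a shared chain of the interleukin-10 family receptors, rose by 0.89 (SE 0.11, adjusted p = 0.0017 by limma), with 11366, 10756 and 11220 in KI and 5031, 6418 and 6733 in WT. Ifnar2, a chain of the type I interferon receptor, rose by 0.36 on its brightest probe set (SE 0.11, adjusted p = 0.029 by limma), with 5500, 4792 and 5041 in KI and 3416, 4280 and 4267 in WT, and by 1.01 and 1.02 on the others. Ifnar1, the other chain, differed by 0.15 (SE 0.07) and Ifngr2, a chain of the interferon gamma receptor, by -0.19 (SE 0.09), and neither passed. Tmem50b, a transmembrane protein, rose by 0.75 (SE 0.09), with 2058, 2216 and 2092 in KI and 1136, 1266 and 1392 in WT, and Dnajc28 differed by 0.06 (SE 0.11). Olig1 and Olig2, transcription factors of the oligodendrocyte lineage, lay below the filter with Fam243, and Gm36712, Smim34 and Gm52236 had no probe set of their own.

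On the other side of the pair, the nearest genes did not pass. Rcan1, an inhibitor of calcineurin, read 1061, 1280 and 1256 in KI and 1390, 1115 and 1049 in WT, a difference of 0.02 (SE 0.13), and the groups overlapped. Smim11, which lies between Kcne2 and Kcne1, differed by 0.13 (SE 0.10), Clic6, a chloride intracellular channel family member, by 0.21 (SE 0.10), and Setd4, a SET domain protein, by -0.18 (SE 0.09). Runx1, a transcription factor of blood cell formation, differed by 0.14 (SE 0.19) on its brightest probe set, while 1 of its 6 tested probe sets rose (0.37, SE 0.12, adjusted p = 0.048 by limma).

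At the far end the carbonyl reductase gene Cbr3 rose by 0.87 (SE 0.08, adjusted p = 0.00082 by limma), with 1903, 1789 and 1651 in KI and 993, 996 and 925 in WT. Its neighbour Cbr1, an enzyme of the same family, rose by 0.30 (SE 0.08) and Morc3, a nuclear matrix ATPase, by 0.22 (SE 0.06), while Dop1b differed by 0.05 (SE 0.09). Without KI 3 the number of neighbours that rose was 3, as the calls for Ifnar2 (adjusted p = 0.081), Cbr1 (0.095) and Morc3 (0.067) ended. Under spike-in scaling 3 rose and 5 fell, while over all tested probe sets 2546 were higher and 9011 lower. With older spike-in scaling 728 of all tested probe sets were higher and 10586 lower, so the neighbour counts moved with those of all probe sets. Older spike-in scaling left 0 that rose, also at an unadjusted p under 0.05 (limma), and 5 that fell, and Ifnar2, Cbr1 and Morc3 turned to -0.17, -0.23 and -0.31.

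**Figure D3:**
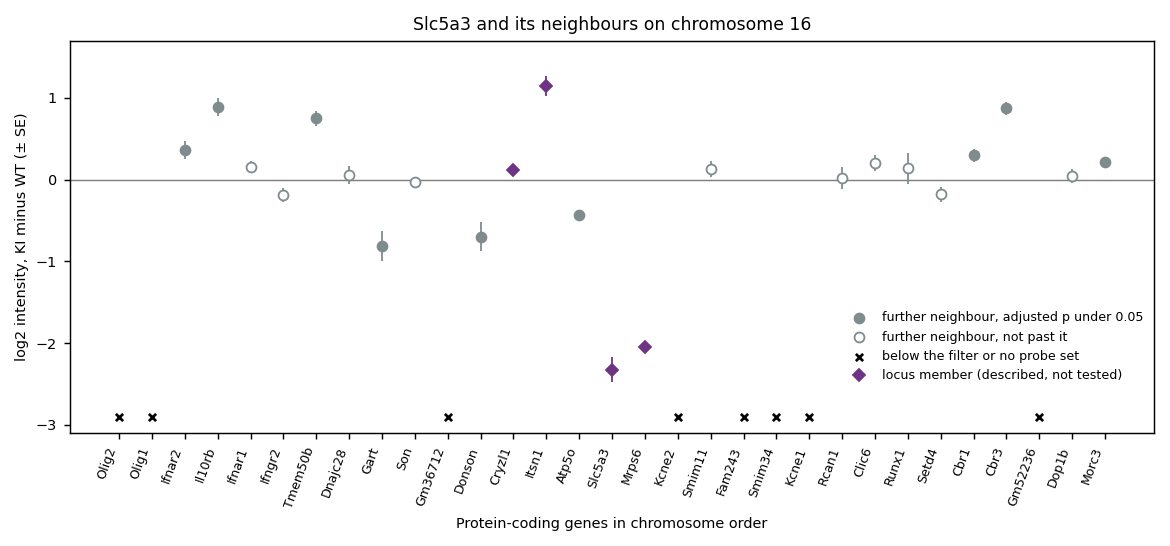
Log2 intensity difference, KI minus WT, with its SE for Slc5a3 and the 15 protein-coding genes on each side in chromosome order, each by its brightest tested probe set; diamonds are the genes of the locus and circles further neighbours, filled where the adjusted p was under 0.05. Slc5a3 and Mrps6 stand together at -2.33 and -2.05, and their neighbours lie between -0.81 and 1.15.

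Each gene of the locus was also set beside genes of like function, in lists chosen with earlier results of these arrays known and without the 6 genes themselves. For Mrps6 these were proteins of the small mitochondrial ribosomal subunit. Of 32 genes 31 were tested, 26 fell in KI and 5 did not pass, beside 27% of all genes that fell. The median difference was -0.47. Mrps35 fell by 0.95 (SE 0.07, adjusted p = 0.00045 by limma), with 1272, 1257 and 1239 in KI and 2597, 2322 and 2382 in WT. Mrps34 fell by 0.96 (SE 0.09), Mrps26 by 0.69 (SE 0.09) and Mrps16 by 0.48 (SE 0.07). The lowest difference in the list was -1.07, against -2.05 and -1.99 for the probe sets of Mrps6. With probe sets named as matching more than 1 transcript left out, 22 genes were tested and 17 fell.

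For Slc5a3 the list held other genes of osmolyte and myo-inositol handling, with heat shock protein and aquaporin genes among them. Of 19 genes 12 were tested, of which 6 fell, 3 rose and 3 did not pass, with a median of -0.42, beside 27% of all genes that fell and 20.9% that rose. Slc6a12, the betaine transporter, had the lowest difference, with 250, 188 and 174 in KI and 1480, 2444 and 2943 in WT (-3.45, SE 0.27, adjusted p = 0.00046 by limma). Nfat5, which encodes the tonicity-responsive factor, fell by 0.53 (SE 0.09), with 756, 650 and 671 in KI and 998, 984 and 1015 in WT. The amino acid transporter gene Slc38a2 differed by -0.65 (SE 0.05) and the heat shock protein gene Hspa1b, a chaperone rather than an osmolyte gene, by -1.59 (SE 0.14), and both passed. The others that fell were Hspa4l, also a heat shock protein gene (-0.58, SE 0.10), and the aquaporin gene Aqp9 (-1.98, SE 0.42). The count that fell is therefore not one of osmolyte and inositol genes alone. The genes that rose were Inpp1, an inositol polyphosphate phosphatase (1.55, SE 0.30), Gde1, a glycerophosphodiester phosphodiesterase (0.23, SE 0.07), and the taurine transporter gene Slc6a6 (0.18, SE 0.06). The count of genes that rose was 1 without KI 1, KI 3 or WT 2 and under either spike-in scaling.

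Of 12 other SLC5 family genes, sodium-coupled transporters of sugars, vitamins and ions, 3 were tested and the rest lay below the filter. The multivitamin transporter gene Slc5a6 fell by 0.37 (SE 0.11, adjusted p = 0.035 by limma), a call that ended when any of KI 1, KI 2, KI 3, WT 1 or WT 3 was left out (adjusted p = 0.071 to 0.093 by limma). Slc5a10 (-0.21, SE 0.08) and Slc5a2 (-0.04, SE 0.08) did not pass. Of all genes 27% fell.

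For Itsn1 the list held its relative Itsn2 and partners in clathrin-mediated endocytosis. Of 31 genes 26 were tested, 13 rose, 3 fell and 10 did not pass, and the median was 0.28. Of all genes 20.9% rose and 27% fell. Bin1, a membrane-curving amphiphysin, rose by 1.16 (SE 0.11, adjusted p = 0.00071 by limma), with 5322, 4723 and 4617 in KI and 1904, 2258 and 2401 in WT. Sh3gl1, an endophilin, rose by 0.78 (SE 0.09) and Eps15, an adaptor of clathrin-coated pits, by 0.68 (SE 0.08), while Epn2, an epsin, fell by 0.99 (SE 0.11). The others that fell were Cltb, a clathrin light chain (-0.64, SE 0.11), and Ap2b1, an AP-2 adaptor subunit (-0.47, SE 0.10), and Itsn2 rose by 0.49 (SE 0.08). With older spike-in scaling the list had 2 that rose and 4 that fell, beside 728 higher and 10586 lower among all tested probe sets.

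Of 12 quinone oxidoreductase-like genes beside Cryzl1, 9 were tested, 2 rose, 3 fell and 4 did not pass (median 0.10), beside 47.9% of all genes past the threshold, 20.9% higher and 27% lower. Ptgr1, a prostaglandin reductase, rose by 0.85 (SE 0.07, adjusted p = 0.00063 by limma) and Vat1 by 0.55 (SE 0.13), while Rtn4ip1 fell by 0.77 (SE 0.15) and Mecr by 0.42 (SE 0.14). The third that fell was Cryz, zeta-crystallin itself (-0.20, SE 0.07). The counts moved when single arrays were left out: 1 rose without KI 1 or KI 3, and 1 fell without KI 1, KI 2, KI 3, WT 1 or WT 2. Older spike-in scaling gave 0 that rose, also at an unadjusted p under 0.05 (limma), beside 728 higher and 10586 lower among all tested probe sets. Of 14 genes of the KCNE family and its partner channels 1, Kcnc4, was tested, and it differed by -0.01 (SE 0.08).

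**Figure D4:**
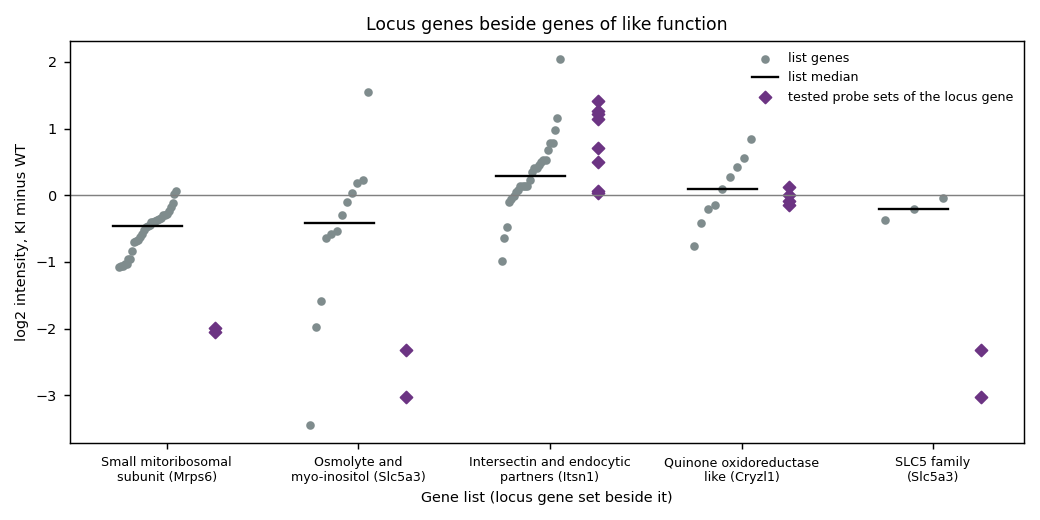
Log2 intensity difference, KI minus WT, of the tested genes of each list (grey points in rising order, black line the median) beside the tested probe sets of the locus gene it was set against (diamonds). The Mrps6 probe sets, at -2.05 and -1.99, lie below all 31 small subunit genes, whose lowest is -1.07.

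The pattern over the 6 arrays most like that of Slc5a3 probe set 1435484_at was sought among 19473 tested probe sets of single genes outside the locus by Pearson's r of the log2 values. The highest were Zfp263 (r = 0.9996), Gsto1 (0.9988), Grhpr (0.9978), Zmiz2 (0.9974) and 2610301B20Rik (0.9971). Mrps6 had r = 0.993 on 1424440_at and 0.988 on 1447585_s_at, with 29 and 94 of those probe sets higher. The other tested Slc5a3 probe set, 1440227_at, had r = 0.979, with 217 higher. The 2 genotypes stand apart in all of these, so that r mostly reflects the gap between groups and takes no account of its size: Zfp263 read 2651, 2533 and 2711 in KI and 5029, 5853 and 5927 in WT, and Gsto1 read 3928, 3784 and 3896 in KI and 5058, 5296 and 5400 in WT, both smaller differences than that of Slc5a3. Such r values, over 6 arrays that share one scaling, describe these arrays and carry no test.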

How the data were processed

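Biotin-labelled cRNA, primed from poly(A) tails, was hybridised to Affymetrix mouse arrays, 1 for each of 3 KI and 3 WT samples, according to the labels. The deposited table holds linear intensity values made by the authors with Affymetrix Expression Console, per the submitters' processing notes; how probes were summarised and arrays normalized is not stated in the labels or the table. Of 45101 probe sets, 64 controls were left out; of the rest 34945 had 1 gene symbol in the platform annotation, 932 several and 9160 none named here, and 34741 matched RefSeq (GRCm38.p6) by gene identifier. Values were floored at 16 (5.47% lay below) and log2 transformed, and 22518 probe sets with a mean above the median were fitted with limma 3.58.1 in R 4.3.3. The number of arrays limits the precision. No exact permutation test is given, as 3 against 3 arrays cannot go below p = 0.1.

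The genes, the lists and the naming rule were chosen with earlier results of these data known. The rule named every probe set of the 6 genes, every further neighbour with a tested probe set, up to 4 genes of each list by smallest p, and the 5 genes most like Slc5a3. Inpp1, Gde1, Slc6a6, Hspa4l, Aqp9, Cryz, Cltb, Ap2b1, Itsn2, Olig1, Olig2, Fam243, and the other Runx1, Atp5o and Ifnar2 probe sets were named after their values were seen. Alternatives were other scalings, filters, variance priors, array weights, a replicate block, the sample number in the descriptions as a covariate, leaving arrays out, leaving out probe sets with names ending in _s_at, _x_at or _a_at, and 1 mean per gene.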

Additional observations from a re-analysis of the deposited data

How the results depend on the processing

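In every one of the 21 alternatives that gave them a value, Slc5a3 and Mrps6 kept their direction on all 4 tested probe sets, with ranges of -2.86 to -2.22 for Slc5a3 1435484_at and -2.58 to -2.00 for Mrps6 1447585_s_at. Leaving out 1 array at a time gave -2.51 to -2.22 and -2.07 to -2.00. Moves beyond 1 SD between replicates, which is small for 1447585_s_at, were -2.86 (1435484_at) and -2.58 (1447585_s_at) under older spike-in scaling, and for 1447585_s_at also -2.25 under spike-in scaling and -2.14 with the sample number as a covariate. Slc5a3 1440227_at ranged from -3.56 to -2.78 and Mrps6 1424440_at from -2.52 to -1.95. Of the 10 locus probe sets past the threshold 1 turned sign, Itsn1 1441034_at (-0.031 under older spike-in scaling), and of the 6 not past it 5 did so under at least 1 alternative.

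Over all probe sets 10101 passed the threshold, against 6184 with the replicate number as a block, 6481 with the covariate, 14348 with array weights, and 6793 to 9335 without 1 array. Spike-in scaling gave 2546 higher and 9011 lower, and older spike-in scaling 728 and 10586, against 4345 and 5756 as deposited. The further neighbours that rose numbered 6, against 3 under spike-in scaling, 0 under older spike-in scaling, 3 with the block, 3 with the covariate, 3 to 6 without 1 array, and 8 with array weights or without both WT 1 and KI 1; those that fell numbered 3, against 5 and 5 under the spike-in scalings, 4 with array weights and 1 with the block. Under older spike-in scaling Cbr1 (-0.23), Ifnar2 (-0.17) and Morc3 (-0.31) turned sign. Of the lists, the small mitochondrial ribosomal subunit had 26 genes that fell, against 16 with the block, and the osmolyte list 3 that rose, against 1 with the block and 0 with the covariate (limma; 2 at an unadjusted p under 0.05). A spike-in scaling divides each array by 1 factor, so it shifts the log2 differences of all probe sets above the floor by the same amount. The cause of the moves under the other settings was not tested. Of 39 named neighbour and list genes under these settings, 698 of 804 values kept direction and call, 52 lost the call, 14 gained one and 3 of called genes turned; 37 values of genes that did not pass turned sign without passing.

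The deviations of same-numbered arrays had r = -0.40, -0.29 and -0.30 for the pairs 1, 2 and 3 across probe sets. The numbers were not taken as pairs in the main fit and were used as a block in an alternative. Other pairings gave r from -0.28 (KI 2 with WT 3) to 0.40 (KI 1 with WT 3). Deviations were taken from the mean of 3 arrays, which ties these r values to each other. They therefore cannot show whether arrays were paired or shared a batch. The estimation of array weights stopped before it converged. Kcne2 and the Kcne1 probe set 1420672_at lie at the floor of 16, where a lower level in KI could not be detected. The other Kcne1 probe set, 1441035_at, was dim but above the floor, at 26.8 to 34.9. Its groups overlapped, with a log2 difference of -0.04 (SE 0.12), so no direction is given. The similarly dim Slc5a3 probe set 1422170_at had groups that did not overlap, but Slc5a3 was selected on its difference. What the Kcne1 probe set could detect is therefore not known.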
